A study of Homo sapiens with 2 samples.

Results

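Cancer-testis antigens are genes that are normally active in germ cells of the testis and silent in most other adult tissues, and that become active again in many tumours. Genes of this kind in the MAGE-A, MAGE-B, MAGE-C, GAGE, PAGE, XAGE and SSX families lie on the X chromosome, often as near-identical neighbouring copies, and their promoters are kept silent in somatic cells by methylation of CG dinucleotides. Peptides of several members are presented on MHC class I molecules and recognised by T cells, and squamous lung cancers are among the tumours in which MAGE-A genes are often switched on.

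The genes described here were taken by name from the annotation of the array: every probe set with a single gene symbol that starts with MAGEA, MAGEB, MAGEC, XAGE, PAGE, GAGE, SSX or BAGE followed by a digit, or that is PRAME, SPANXC, CT45A1, CTAG2, SYCP1, TEX14, DDX43 or BRDT. The rule gave 45 of 54675 probe sets, which measure 33 of 19735 genes, 26 on the X chromosome and 7 on autosomes. SPANXC and CT45A1 had no probe set with a single symbol. By its letters the rule also took SSX2IP, which encodes a protein that binds SSX2 and serves centrosomes and cell junctions, and is not itself an SSX gene.

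The samples were HARA-B4, a bone-seeking subline that metastasises strongly to bone, and HARA, the parental human squamous cell lung cancer line from which it comes. Both were grown in the same serum-supplemented medium, and biotin-labelled cRNA from total RNA was hybridised to 1 Affymetrix array per line. With 1 array per line (n = 1) there is no estimate of the spread between cultures and no p-value, so differences between the lines and differences between 2 cultures cannot be told apart. The labels used here do not say how the subline was selected or whether it is 1 clone.

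Receptor genes of smell, taste and the vomeronasal organ, which a lung cancer line is not taken to use, gave the background level: the 95th percentile of their 165 probe sets on the 2 arrays was a signal of 27.1. A gene counted as lower or higher in HARA-B4 when it differed by at least 2-fold. Where 1 of the arrays was at or under background, its value was set to that level and the fold is a lower bound. Log2 differences are HARA-B4 minus HARA. Where a gene had more than 1 probe set above background in each line (4830 genes), the SD of the log2 difference between its probe sets was 0.30, a technical spread within these arrays. Over all probe sets, 40.8% were above background in HARA-B4 and 42.0% in HARA. Markers of squamous lung cancer were above background in 11 of 12 measured genes in both lines. Their summed signal was 30338 in HARA-B4 and 22865 in HARA. CALML3 (3.13), KRT15 (1.997) and PKP1 (1.82) were higher in HARA-B4. These are 25% of the markers, with 0% lower, beside 2.11% higher and 2.45% lower over all genes. DSC3 (-0.98), DSG3 (-0.50) and KRT5 (-0.07) went the other way without reaching 2-fold. The remaining markers above background ran from 0.38 to 0.97. Of 15 markers of testis and germ cells, 3 were above background in HARA-B4 (INSL3, KIT and SOX9) and 1 in HARA (INSL3). The 15 summed to 259 in HARA-B4 and 222 in HARA. Those at background in both lines included the germ cell genes DDX4 and DAZL. Of 9 fibroblast markers, FAP was higher and ACTA2 and THY1 lower in HARA-B4, with summed signals of 437 and 477 in HARA-B4 and HARA. Blood and bone marrow markers (2 of 10 above background in both lines, CD79A and HBB, with PTPRC at background) summed to 156 in HARA-B4 and 162 in HARA. Endothelial markers (1 of 6, PECAM1, with VWF and CDH5 at background) summed to 71.3 in HARA-B4 and 74.3 in HARA. Whether these markers have a part in the results below was not tested.

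Most of the cancer-testis genes were at background in both lines, and a few were bright in both. Of the 33 genes, 8 were above background in HARA-B4 and 9 in HARA, and 24 were at background on both arrays. Of all genes on the array, 58.2% were above background on at least 1 array. MAGEA11, MAGEA1 and PRAME were at least 2-fold lower in HARA-B4, and no member was at least 2-fold higher. Over all genes, 2.45% were lower and 2.11% higher by the same rule, beside 9.09% and 0% of the members. In RNA from whole cultures, fewer expressing cells and less RNA per cell cannot be told apart. The median log2 difference was 0.00 over all 33 genes with background values floored and 0.00 over all genes treated the same way.

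**Figure D1:**
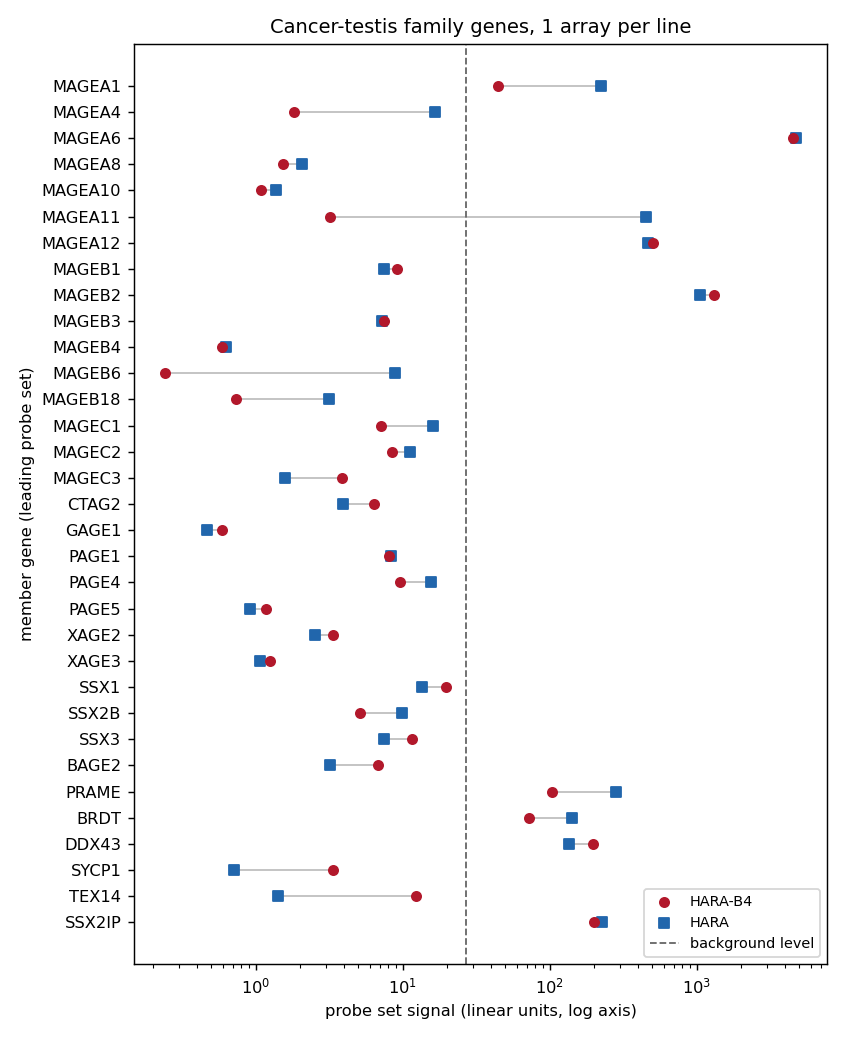
Signal of the leading probe set (the one with the highest mean log2 signal) of each of the 33 member genes in HARA-B4 (red circles) and HARA (blue squares), on a log axis in linear array units, with the background level of 27.1 as a dashed line. MAGEA11 is at 3.22 in HARA-B4 and 450 in HARA, MAGEA6, MAGEA12 and MAGEB2 lie close together in both lines, and 24 genes are left of the line in both.

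MAGE-A genes encode a family of proteins that share a MAGE homology domain, through which they bind and steer RING-type ubiquitin ligases. The family parted within this pair of lines: 2 of its 7 members were lower in HARA-B4, 2 were bright and nearly equal, and 3 were at background in both. MAGEA11, known as a coregulator of the androgen receptor, had a signal of 3.22 in HARA-B4 and 450 in HARA. By its only probe set it was at background in the subline and clearly above it in the parental line, and was at least 16.6-fold lower in HARA-B4. That bound, -4.05 as a log2 difference, follows the background level: it was -3.05 with the level raised by 1 on the log2 scale and -2.25 with the 99th percentile of the receptor probe sets. Only 8 of 19735 genes had a lower floored difference. MAGEA1, the source of the peptide through which human T cells were first found to recognise a tumour antigen, had a signal of 44.7 in HARA-B4 and 224 in HARA. It was above background in both lines, with a log2 difference of -2.33, or a bound of -1.24 with the 99th percentile as background. Its only probe set ends in _x_at, a suffix for probes that can match other transcripts, and its HARA-B4 signal was within 2-fold of the background level.

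MAGEA6 and MAGEA12 did not follow MAGEA11 and MAGEA1. MAGEA6, which with the ubiquitin ligase TRIM28 targets the energy sensor AMPK for degradation, had a signal of 4556 in HARA-B4 and 4744 in HARA, a log2 difference of -0.06. MAGEA12 had a signal of 505 in HARA-B4 and 470 in HARA, a log2 difference of 0.10. Both differences are smaller than the spread between probe sets of a gene, and both genes were also measured by a single _x_at probe set. MAGEA4, MAGEA8 and MAGEA10 were at background in both lines. MAGEA4, another antigen of lung squamous tumours, had the highest mean log2 signal of these, at 1.82 in HARA-B4 and 16.5 in HARA, and values under background have no order.

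**Figure D2:**
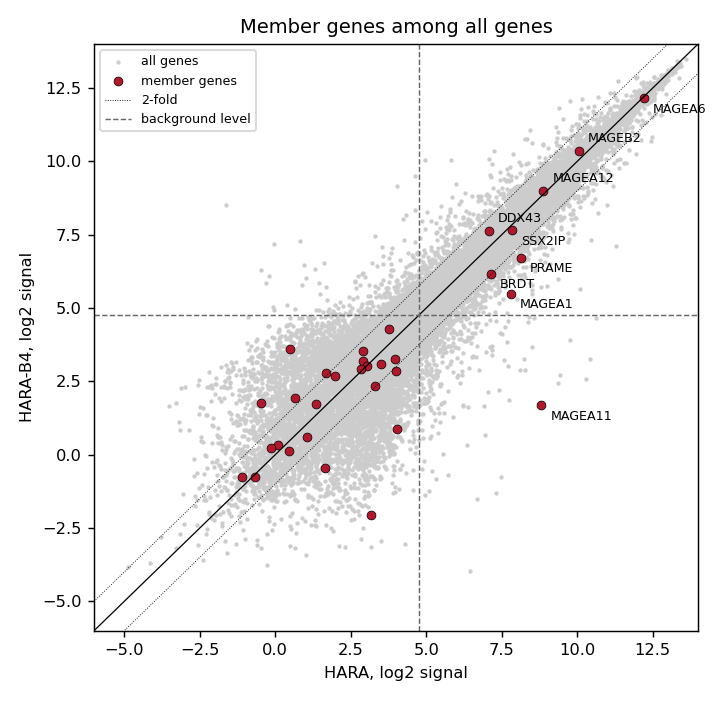
Log2 signal in HARA-B4 (vertical axis) against HARA (horizontal axis) for all genes (grey) and the 33 member genes (red), with the line of equality, 2-fold lines (dotted) and the background level on both axes (dashed). MAGEA11 lies far below the line in the corner that is above background in HARA only, MAGEA1 and PRAME lie under the lower 2-fold line, and MAGEA6, MAGEB2 and MAGEA12 lie near equality.

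Promoters of MAGE-A genes that differed and that did not are shown to compare their CG dinucleotides, the sites at which these genes are silenced. RefSeq promoters (GRCh38.p14, 250 bases before to 50 after the gene start) were found for 27 of the 33 genes. None was found for MAGEA1. The 4 sequences below are MAGEA11 (chrX:149711810-149712109, plus strand), its nearest member by promoter identity, MAGEA12 (chrX:152733507-152733806, plus strand), PRAME (chr22:22559216-22559515, minus strand) and its nearest member, MAGEA6 (chrX:152769640-152769939, minus strand). Capitals mark each CG.
MAGEA11: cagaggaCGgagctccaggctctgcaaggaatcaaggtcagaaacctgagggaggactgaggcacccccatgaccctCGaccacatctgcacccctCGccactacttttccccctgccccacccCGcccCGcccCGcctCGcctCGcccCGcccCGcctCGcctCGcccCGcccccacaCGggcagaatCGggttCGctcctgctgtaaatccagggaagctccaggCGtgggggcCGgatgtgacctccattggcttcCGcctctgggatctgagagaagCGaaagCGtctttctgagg
MAGEA12: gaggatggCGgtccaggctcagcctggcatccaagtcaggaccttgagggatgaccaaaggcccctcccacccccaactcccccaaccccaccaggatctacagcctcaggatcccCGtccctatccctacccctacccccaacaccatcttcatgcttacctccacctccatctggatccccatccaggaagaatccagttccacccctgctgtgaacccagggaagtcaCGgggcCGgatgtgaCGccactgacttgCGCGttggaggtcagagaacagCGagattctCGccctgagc
PRAME: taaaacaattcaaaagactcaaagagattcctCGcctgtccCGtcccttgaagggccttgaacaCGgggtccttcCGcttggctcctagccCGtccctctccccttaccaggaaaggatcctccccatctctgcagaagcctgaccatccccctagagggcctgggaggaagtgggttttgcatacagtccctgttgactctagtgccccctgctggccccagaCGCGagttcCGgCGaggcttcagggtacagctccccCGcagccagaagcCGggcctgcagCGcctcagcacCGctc
MAGEA6: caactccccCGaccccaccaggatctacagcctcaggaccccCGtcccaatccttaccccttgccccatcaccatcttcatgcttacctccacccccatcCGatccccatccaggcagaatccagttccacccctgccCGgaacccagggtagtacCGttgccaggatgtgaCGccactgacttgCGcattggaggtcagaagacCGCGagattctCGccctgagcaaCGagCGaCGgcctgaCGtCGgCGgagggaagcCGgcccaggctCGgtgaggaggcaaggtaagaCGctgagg

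The MAGEA11 promoter held 21 CG dinucleotides, many of them in a run of cytosine-rich repeats, and that of MAGEA12 held 9. The MAGEA6 window held 19 and the PRAME window 13, against a median of 14 over 35116 promoters of the same length. These windows do not cover matching parts of the promoters. The stretch GGATGTGA, described below, lies at position -13 from the gene start in MAGEA11, -12 in MAGEA12 and -86 in MAGEA6. The MAGEA6 window thus reaches further past this stretch, and its CG count cannot be set directly against that of MAGEA12. MAGEA11 and MAGEA12 were identical at 61.2% of 312 aligned positions, while PRAME and MAGEA6 matched at 50.4% of 337. Pairs of MAGE-A windows ran from 45.9% to 61.2%. The nearest member is only the one with the highest identity, and identity between unrelated windows was not measured. The PRAME value is therefore no sign of kinship with MAGEA6. MAGEB2, bright in both lines, also held 21, as did BRDT and DDX43.

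Short motifs of factors known at germline and CG-rich promoters were searched on both strands. The exact string CCGGAA, a form of the Ets core, was found in the windows of MAGEA6, MAGEB6 and PRAME and in 17.2% of all promoters. Other forms of the Ets site were not searched by name, so windows without this string may still hold one. The MAGEA11 and MAGEA12 windows hold CCGGAT, which differs from the string in its last base and overlaps the 8-base stretch named below. The GC box GGGCGG, a site for SP1-type factors, was found 4 times in the MAGEA11 window, with some copies overlapping by a base, and in none of the MAGEA12, MAGEA6 or PRAME windows. It occurred in 45.0% of all promoters. The E2F6-type core TCCCGC and the E-box CACGTG were found in none of the 4 windows, and in 26.9% and 7.26% of all promoters. An 8-base stretch chosen after the sequences were seen, GGATGTGA, was present in all 5 MAGE-A windows available (MAGEA4, MAGEA6, MAGEA8, MAGEA11 and MAGEA12) and in MAGEB2, and in 1.16% of all promoters. The windows with this stretch belong to genes that were lower, equal and at background. Whether the stretch has a part in the differences was not tested.

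MAGE-B and MAGE-C genes encode relatives with the same domain. MAGEB2 was the single gene of these families above background, with a signal of 1310 in HARA-B4 and 1059 in HARA and a log2 difference of 0.31, close to the spread between probe sets of a gene. The other 5 MAGE-B genes were at background in both lines, and MAGEB1, with the highest mean log2 signal of them, was at 9.16 in HARA-B4 and 7.42 in HARA. All 3 MAGE-C genes were at background, with MAGEC1 at 7.17 in HARA-B4 and 16.1 in HARA. MAGEC2, a partner of TRIM28, was at 8.43 and 11.2 in HARA-B4 and HARA by its brighter probe set.

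PRAME, a tumour antigen that represses retinoic acid receptor signalling and serves as a substrate receptor of a CUL2 ubiquitin ligase, lies on chromosome 22 and was the autosomal member that was lower. Its signal was 104 in HARA-B4 and 281 in HARA, both above background, with a log2 difference of -1.43. BRDT, the testis member of the BET bromodomain family that reads acetylated histones during spermatogenesis, had a signal of 72.3 in HARA-B4 and 141 in HARA, a log2 difference of -0.97 that did not reach 2-fold. DDX43, a DEAD-box RNA helicase, was at 197 in HARA-B4 and 135 in HARA, with a log2 difference of 0.55 that also did not reach 2-fold. Each of these 3 genes had a single probe set, with neither of the suffixes _x_at and _s_at.

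The remaining families were at background. SSX genes encode repressors, and some of the family are known from fusions with SS18 in synovial sarcoma. SSX1, SSX2B and SSX3 had signals of at most 20.2 in any probe set on either array, and SSX1 was at 19.6 in HARA-B4 and 13.5 in HARA. PAGE4 was at 9.66 in HARA-B4 and 15.5 in HARA, and XAGE2 at 3.35 in HARA-B4 and 2.54 in HARA. GAGE1 had a signal of 0.585 in HARA-B4 and 0.468 in HARA, and BAGE2, which RefSeq lists as a transcribed pseudogene, was at 6.84 in HARA-B4 and 3.20 in HARA. CTAG2, a relative of the antigen NY-ESO-1, was at 6.41 in HARA-B4 and 3.92 in HARA. The meiotic gene SYCP1, which forms the cross-filaments of the synaptonemal complex, was at 3.36 in HARA-B4 and 0.714 in HARA. TEX14, needed for bridges between germ cells, was at 12.3 in HARA-B4 and 1.42 in HARA. All 31 member probe sets at background had signals from 0.243 to 19.6 in HARA-B4 and from 0.468 to 20.2 in HARA, and their medians of 3.39 and 3.19 were near those of the receptor probe sets, 4.31 in HARA-B4 and 4.09 in HARA.

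SSX2IP gave a view of how far probe sets of 1 gene part. Its 6 probe sets were all above background on both arrays, with signals from 33.8 to 201 in HARA-B4 and from 40.2 to 228 in HARA. Their log2 differences ran from -0.75 to 0.46, 5 of them below 0, and none reached 2-fold. Without SSX2IP, an alternative added after the data were seen, 8 of 32 genes were above background on at least 1 array and the same 3 were lower.

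Most X chromosome genes around the lower MAGE-A genes did not share their difference. By RefSeq order, the 10 nearest non-member genes above background on both arrays around MAGEA11 had log2 differences from -0.45 to 0.90, with a median of 0.35, and 0 were lower by 2-fold. They included FMR1, the fragile X gene, at a signal of 948 in HARA-B4 and 886 in HARA, and IDS, a lysosomal sulfatase, at 511 in HARA-B4 and 281 in HARA. Around MAGEA1 the 10 neighbours ran from -1.08 to 0.99 with a median of 0.22. The 1 lower gene there was LOC105373383, at 38.9 in HARA-B4 and 82.2 in HARA, and the sterol enzyme gene NSDHL differed by 0.25. MAGEA6 and CTAG2 are the members next to MAGEA1 in gene order. MAGEA6 did not differ by 2-fold, and CTAG2 was at background in both lines. Of 696 X chromosome genes, 2.30% were lower and 0.862% higher, and the members make up 2 of the 16 lower genes. The neighbours had to be above background on both arrays, so a neighbour silent in 1 line could not appear.

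**Figure D3:**
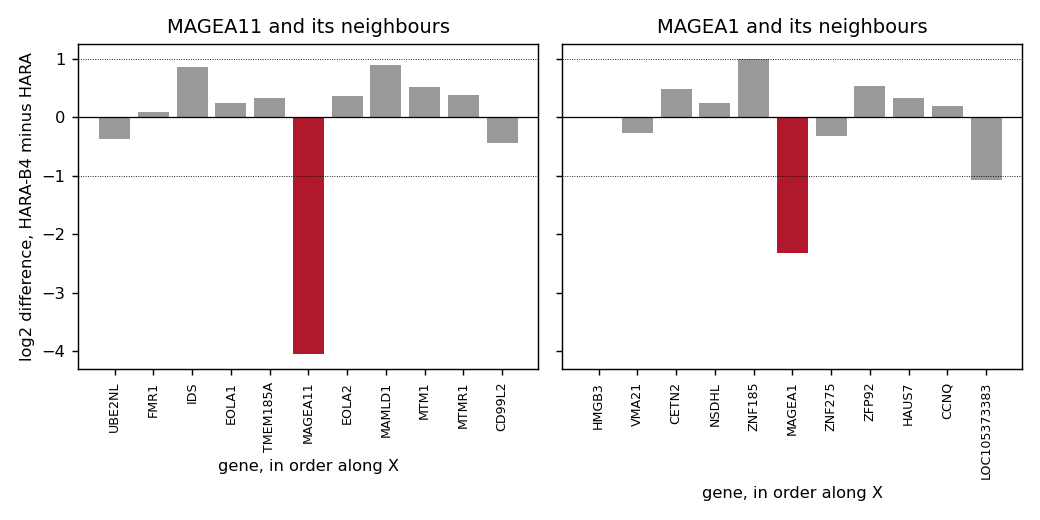
Log2 difference (HARA-B4 minus HARA) of MAGEA11 (left) and MAGEA1 (right), in red, and of the 5 nearest non-member genes above background on both arrays on each side, in gene order along X, with dotted lines at 2-fold. The MAGEA11 bar is a bound at -4.05, the MAGEA1 bar is at -2.33, and the neighbours lie between -1.08 and 0.99.

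Probe sets annotated to several near-identical genes are no members and name no single gene, yet they cover family copies that the others miss. There were 28 of these, 9 above background on at least 1 array (32.1%), beside 51.2% of all probe sets with 1 symbol matched to RefSeq. The SPANX family, X-linked genes whose proteins sit at the nucleus of sperm, had the most extreme values. A probe set annotated to 4 SPANX genes had a signal of 3.05 in HARA-B4 and 2241 in HARA, at least 82.6-fold lower in HARA-B4. A probe set for 2 of them had 3.13 in HARA-B4 and 1491 in HARA, and one for 3 had 24.1 in HARA-B4 and 1478 in HARA, at least 55.0-fold and 54.5-fold lower. With the 99th percentile as background, an alternative added after the data were seen, these bounds were 23.6-fold, 15.7-fold and 15.6-fold. All 3 were far above background in HARA and under it in HARA-B4, but the genes overlap between them, so they are not independent. Another probe set, with the single symbol SPANXB1, which the rule does not take, had 2.67 in HARA-B4 and 42.6 in HARA, a bound of 1.57-fold that does not reach 2-fold. These probe sets were looked at after their values were seen.

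Shared MAGE-A probe sets were bright and nearly equal. The probe set for MAGEA3 together with MAGEA6 had a signal of 4802 in HARA-B4 and 5023 in HARA, a log2 difference of -0.06. Those for MAGEA2 with MAGEA2B differed by 0.24 and 0.21 at signals of 858 and 1485 in HARA-B4 and 726.5 and 1284 in HARA. The one for MAGEA9 with MAGEA9B had 885 in HARA-B4 and 1118 in HARA, a difference of -0.34. Thus 5 of the 6 shared MAGE-A probe sets were above background in both lines, and none reached 2-fold. Over all probe sets with 1 symbol matched to RefSeq, 2.12% were lower and 1.63% higher, so a set of this size shows nothing by that count. The 4 shared GAGE, 8 shared SSX and 3 shared CTAG1 probe sets were at background in both lines. A CT45A probe set was at 15.0 in HARA-B4 and 30.8 in HARA, just over background there.

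**Figure D4:**
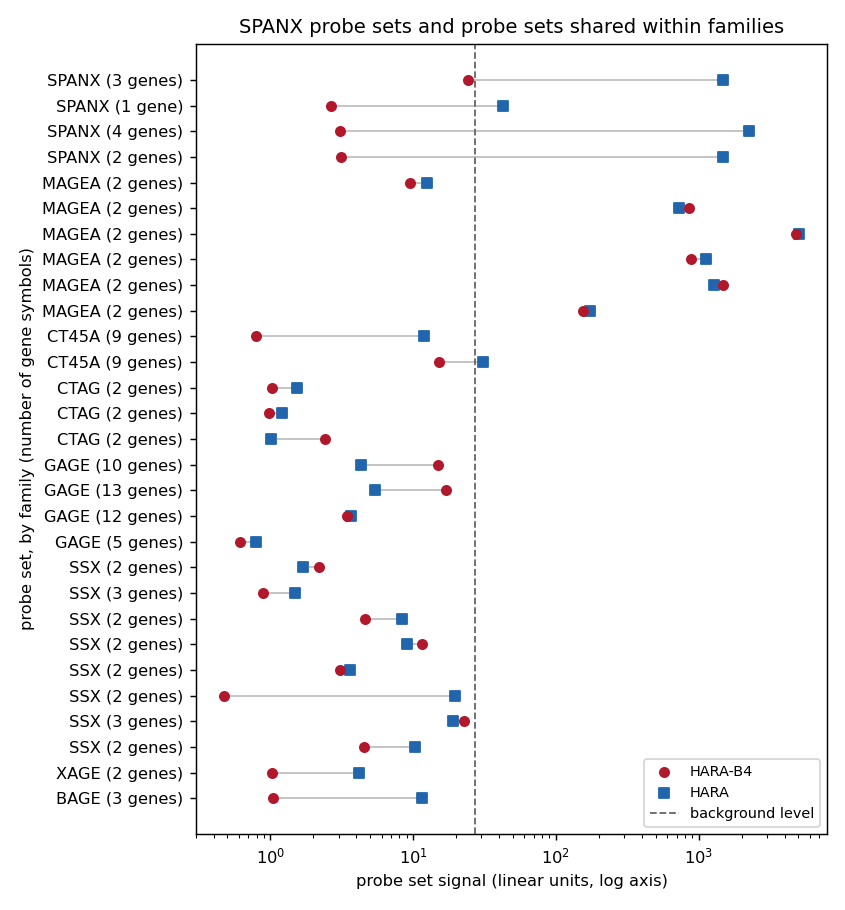
Signal in HARA-B4 (red circles) and HARA (blue squares) of the probe sets shared by several genes of a family, and of 1 SPANXB1 probe set, on a log axis in linear array units, with the number of gene symbols per probe set in brackets and the background level dashed. The 3 shared SPANX probe sets are at 1478 or more in HARA and at or under 24.1 in HARA-B4, while 5 of the 6 MAGE-A ones lie close together in both lines.

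Of 49 measured cancer-testis and germline antigens outside the rule, 20 were above background on at least 1 array, 2 were lower (4.08%) and 1 was higher (2.04%), beside 2.45% lower and 2.11% higher over all genes. LY6K, a GPI-anchored surface protein of testis and squamous tumours, had a signal of 367 in HARA-B4 and 2029 in HARA, a log2 difference of -2.47, and its second probe set differed by -2.25. CABYR, a calcium-binding protein of the sperm tail, was at 102 in HARA-B4 and 252 in HARA (-1.31). ZNF165, a zinc finger protein, was the higher one, at 170 in HARA-B4 and 79.4 in HARA (1.10). With the 99th percentile of the receptor probe sets as background ZNF165 does not reach 2-fold. CTCFL, the testis paralogue of CTCF that has been tied to MAGE-A activation, was at background in both lines, at 3.39 in HARA-B4 and 1.56 in HARA.

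Genes of meiosis and of the germ cell and piRNA pathway were mostly at background, and their counts are near the 2.45% lower and 2.11% higher over all genes, of which 58.2% were above background on at least 1 array. Of 21 meiosis genes 9 were above background on at least 1 array and 0 differed by 2-fold, and the brightest, BRIP1 and MND1, both differed by -0.74. Of 29 germ cell and piRNA genes, 6 were above background on at least 1 array, 1 was lower and 1 higher. MAEL, a piRNA pathway factor, was at 6.52 in HARA-B4 and 72.5 in HARA, at least 2.67-fold lower in HARA-B4. With the 99th percentile as background its HARA signal is under that level as well, so this call depends on the level chosen. NANOS1, a germline translational repressor, was at 95.6 in HARA-B4 and 29.4 in HARA (1.70), but its other probe set above background differed by -0.41. The NANOS1 call is also lost with the 99th percentile as background.

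A list of factors tied to the silencing of germline promoters was nearly all above background, and 3 of the 48 measured differed by 2-fold. Not all of the list are silencers, as it also holds the TET enzymes, which work against DNA methylation. SMCHD1, which acts in X inactivation, was at 184 in HARA-B4 and 403 in HARA (-1.13), with probe sets from -2.05 to -0.62. EZH2, the H3K27 methyltransferase of Polycomb and a partner of PRAME, was at 383 in HARA-B4 and 791 in HARA (-1.05). TET1, which oxidises methylated cytosine, was the higher one, at 105 in HARA-B4 and 45.6 in HARA (1.20). With the 99th percentile of the receptor probe sets as background TET1 does not reach 2-fold. The DNA methyltransferases DNMT1, DNMT3A and DNMT3B, named here after their values were seen, did not reach 2-fold. DNMT1 was at 777 in HARA-B4 and 1144 in HARA (-0.56), DNMT3A differed by 0.21 and DNMT3B by 0.46. The shares lower and higher in this list, 2 and 1 of 48, stand beside 2.45% and 2.11% of all genes, and its median was -0.05.

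**Figure D5:**
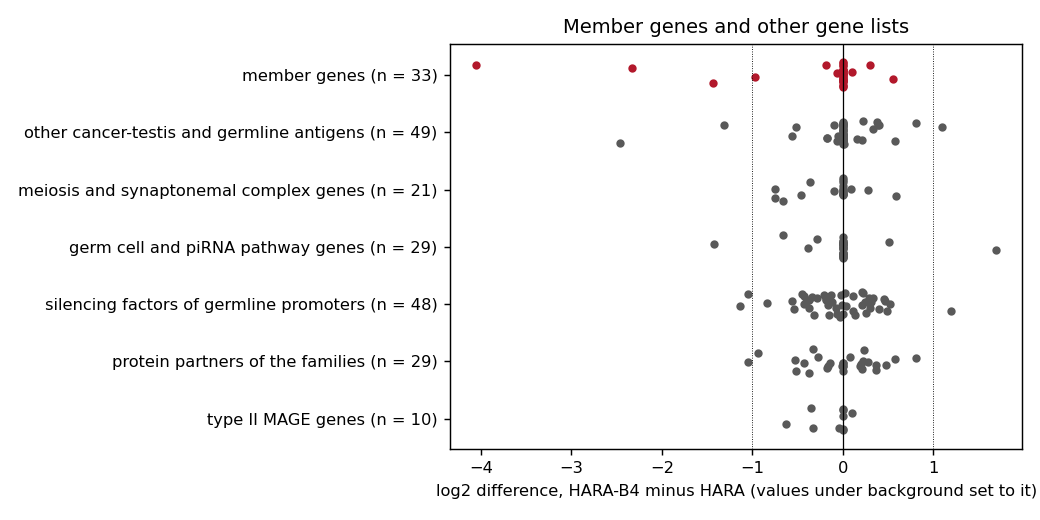
Log2 difference (HARA-B4 minus HARA, with values under background set to it) of each gene in the 33 members (red) and in 6 other gene lists (grey), with dotted lines at 2-fold and points spread vertically for legibility. The lowest points are MAGEA11 at -4.05, LY6K of the germline antigens at -2.47 and MAGEA1 at -2.33, and most genes of every list lie between the dotted lines.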

How the data were processed

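The deposited file holds 1 linear intensity per probe set and array. Per the submitters' processing notes the tool was Affymetrix Expression Console; which version, how probes were summarised and how arrays were scaled is not given in the sources used. The mean intensity without the outer 2% at each end was 116.0 in HARA-B4 and 115.6 in HARA, so the authors deposited arrays at about the same level, and no further scaling was applied. The array number limits the precision of every value.

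Of 54675 probe sets, 41097 had 1 symbol, 1801 several and 11777 none in the platform annotation, and 41043 were matched by Entrez ID to RefSeq (GRCh38.p14). Each gene is represented by its brightest probe set (mean of both log2 signals). No test was run, because 1 array per line leaves no degrees of freedom. The calling steps were run on simulated data only to check the code. How the calls hold between cultures of a line was not tested. Every member above background on at least 1 array was named, with the brightest member of each family at background, and in other lists up to 4 genes past 2-fold or the 2 brightest. Promoter identity came from global alignment (Biopython 1.88). Analysis used Python 3.11.15 with numpy 2.4.6, pandas 2.3.3 and statsmodels 0.14.6. The members and lists were chosen with earlier results of these data known.

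Alternatives were 3 scalings (median difference subtracted, quantile, lowess), 4 background settings, the mean of probe sets, exclusion of the _x_at and _s_at probe sets, log2(signal + 16), folds of 1.5 and 3, and agreement of all probe sets.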

Additional observations from a re-analysis of the deposited data

How the results depend on the processing

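The set of lower genes, MAGEA1, MAGEA11 and PRAME, was the same under median subtraction, quantile normalization, lowess and log2(signal + 16). It was also the same with a background raised or lowered by 1 on the log2 scale or set at the 99th percentile. The mean of probe sets and agreement of all probe sets gave this set too. Each of these genes has a single probe set, so those 2 settings could not change their calls. With no background floor 7 members were lower and 4 higher, against 12.9% and 11.5% of all genes, since values under background then counted. With the _x_at and _s_at probe sets excluded, 25 member genes were left, of which 5 were above background and 2 lower, as MAGEA1 had no other probe set. At 1.5-fold BRDT was lower as well, giving 4, and at 3-fold PRAME was not, giving 2. No sign turned in any called gene. The difference of MAGEA11 ran from -7.13 to -2.25, since its HARA-B4 value is set by the background, that of MAGEA1 from -2.33 to -1.24 and that of PRAME from -1.43 to -1.30. Leaving out SSX2IP, added after the data were seen, gave 8 members above background. No paired analysis was possible because each line has 1 array. Signals under 27.1 cannot be told from background, so genes there may differ without being seen.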

Other observations

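The relatives of the MAGE families that are active in many tissues are the type II MAGE genes. Of 10 measured, 6 were above background in both lines and 0 reached 2-fold, and with 2.45% lower and 2.11% higher over all genes a list of this size shows nothing by that count. MAGEF1, a regulator of iron-sulfur protein assembly through a ubiquitin ligase, had a signal of 643 in HARA-B4 and 991 in HARA, a log2 difference of -0.63. MAGED1, a partner of the neurotrophin receptor p75, was at 571 in HARA-B4 and 587 in HARA (-0.04).

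Of 29 measured protein partners of the families, 27 were above background in both lines and EZH2, lower in HARA-B4, was the 1 that reached 2-fold. That is 3.45% lower and 0% higher, beside 2.45% and 2.11% of all genes, so the count shows nothing particular to this list. TRIM28, the ligase bound by MAGE-A and MAGE-C proteins, was at 1025 in HARA-B4 and 1332 in HARA (-0.38), and CUL2, the scaffold of the PRAME ligase, at 409 in HARA-B4 and 336 in HARA (0.28). IL13RA2, a decoy receptor counted among the cancer-testis antigens and named after its values were seen, was at 0.567 in HARA-B4 and 40.0 in HARA, under the 2-fold bound because its HARA signal was close to background.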
